A study of Homo sapiens with 2 samples.

Results

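The genes described here are 10 that protect a cell from foreign or reactive small molecules: the drug efflux pumps ABCB1, ABCG2, ABCC1, ABCC2, ABCC3 and ABCC4, and the aldehyde dehydrogenases ALDH1A1, ALDH1A3, ALDH3A1 and ALDH2. They were found by taking every probe set whose platform annotation named exactly 1 of them, which gave 20 probe sets of 54675 on the array and 10 of 19775 genes with such an annotation. RNA came from HCT15, a long-established line of human colorectal adenocarcinoma. One culture was given Cas9 and a guide RNA directed at ARID3B, which encodes a DNA-binding protein, and is labelled an ARID3B knockout. The other is labelled control, and each was hybridised to 1 array, called the KO-labelled and the control array here. Both cultures grew in RPMI medium with fetal bovine serum, and what the control cells received, or whether the edited cells were a clone or a pool, is not stated in the sources used here. A single array stood for each group, so differences have neither a replicate check nor a test, they describe these 2 arrays, and the small number of arrays limits their precision.

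ATP-binding cassette (ABC) pumps use ATP to carry substrates across a membrane, and several of them export anticancer drugs. ABCB1, or P-glycoprotein, exports large hydrophobic drugs such as taxanes, anthracyclines and vinca alkaloids, and HCT15 is known as a line that makes it without drug selection. Aldehyde dehydrogenases oxidise aldehydes to acids, and those of the ALDH1A group turn retinaldehyde into retinoic acid. High dehydrogenase activity and dye efflux through ABCG2 are both used in the field to sort cells with stem-like behaviour.

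Values are RMA-normalised expression on the log2 scale, and a difference is the KO-labelled minus the control array, so that -1 means 2-fold lower. Each gene took the values of its probe set with the highest mean over both arrays. Genes entered the comparison where at least 1 array reached 4.59, the median over the non-control probe sets, called the floor here. This kept 12841 of 19775 genes, whose median difference was 0.04. ARID3B itself stood at 6.09 on the KO-labelled array and 5.12 on the control array (0.97). It had 1 probe set, whose control value lay within 1 log2 unit of the floor. With 64 linear units added to every value it differed by 0.42. The transcript of the targeted gene was thus not lower on the array labelled knockout, and every direction below rests on the label alone. Of 16 colon epithelium markers 12 lay above the floor on both arrays, among them EPCAM, CDH1, KRT8 and CDX2. KRT20, LGALS4 and CEACAM6 of the same list lay under the floor on both. Above the floor on both arrays were 1 of 8 measured fibroblast markers, 3 of 6 leukocyte markers and 2 of 6 endothelium markers. CD3E, CD14, ITGAM, PECAM1 and TEK were among these, while PTPRC, COL3A1 and CDH5 lay under the floor. The differences of the fibroblast, leukocyte and endothelium markers ran from -0.39 to 0.50.

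The stretch of 250 bases before the annotated start of transcription is shown for the members past 2-fold for which RefSeq's promoter table (GRCh38.p14) holds one, because these 3 genes differed in the same direction relative to the other genes of the arrays. Capitals mark 3 motifs searched on both strands. They are GCGTG, the core bound by the aryl hydrocarbon receptor with its partner ARNT, the CCAAT box, and the GC box, spelled GGGCGG. The only overlap was between GC boxes of ALDH1A3. Where a gene had several starts, the most downstream one is shown, and which start these cells use was not measured.
ABCB1, chr7:87600885-87601134, minus strand: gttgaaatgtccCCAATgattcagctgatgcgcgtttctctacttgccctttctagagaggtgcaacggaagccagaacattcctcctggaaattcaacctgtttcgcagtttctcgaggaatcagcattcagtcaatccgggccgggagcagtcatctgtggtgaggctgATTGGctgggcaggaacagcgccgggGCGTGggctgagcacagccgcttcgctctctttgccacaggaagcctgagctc
ABCG2, chr4:88158640-88158889, minus strand: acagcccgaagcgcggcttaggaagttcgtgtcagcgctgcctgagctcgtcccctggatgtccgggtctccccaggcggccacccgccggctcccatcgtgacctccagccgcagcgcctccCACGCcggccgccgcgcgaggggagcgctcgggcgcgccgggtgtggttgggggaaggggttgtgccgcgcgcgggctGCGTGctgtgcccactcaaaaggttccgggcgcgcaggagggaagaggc
ALDH1A3, chr15:100879581-100879830, plus strand: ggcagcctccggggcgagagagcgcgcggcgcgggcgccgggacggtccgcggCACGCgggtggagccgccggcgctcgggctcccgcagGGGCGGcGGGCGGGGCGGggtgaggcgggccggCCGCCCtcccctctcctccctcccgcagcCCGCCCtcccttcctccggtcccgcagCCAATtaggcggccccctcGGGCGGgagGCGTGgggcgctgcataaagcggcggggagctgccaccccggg
The core GCGTG began 53 bases before the start in ABCB1, 127 and 49 bases before it in ABCG2, and 197 and 43 bases before it in ALDH1A3. Over all their starts in the table, it was present at 1 of 2 for ABCB1, 3 of 5 for ABCG2 and the only one of ALDH1A3. Among 35116 such windows in the table, 32.2% held it on either strand, and 49.2% of those with at least 60% G and C did. The window of ABCC4, a member that was not lower, held it too, while those of ABCC2 and ALDH1A1 did not. Among the 3 windows shown, CCAAT stood in those of ABCB1 and ALDH1A3 (32.0% of all windows). The GC box stood only in that of ALDH1A3 among the 3 (42.6% of all windows). The window of ALDH1A1, a member under the floor on both arrays, held CCAAT too, while those of ABCC2 and ABCC4 did not. Over all their starts, CCAAT was present at 1 of 2 for ABCB1 and the GC box at 2 of 5 for ABCG2. Of the windows with at least 60% G and C, 27.0% held CCAAT and 75.4% the GC box. G and C made up 55.6% of the ABCB1 window, 73.6% of the ABCG2 window and 82.4% of the ALDH1A3 window. The motifs were picked with the expression values known, and a match describes letters, not binding.

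Of the 10 members, 8 reached the floor, and 4 of these were at least 2-fold lower on the KO-labelled array: ABCB1, ABCG2, ALDH1A3 and ALDH3A1. None was 2-fold higher. With the arrays scaled on their poly-A spike-in controls none was 2-fold lower and 4 were 2-fold higher. Among all 12841 genes compared, 44 were then 2-fold lower and 9137 higher. With 64 linear units added to every value 1 member was lower, beside 117 of all 12841 genes. On the scale as deposited, 3.79% of all genes compared were at least 2-fold lower and 1.05% at least 2-fold higher. The same 4 members were lower at 1.5-fold and none was higher, where 10.5% of all genes were lower and 5.83% higher. At 3-fold ABCB1 alone was lower and none was higher, where 1.04% of all genes were lower and 0.195% higher. On the scale as deposited the members divided into 4 with differences from -1.86 to -1.08 and 4 from -0.10 to 0.50, with none between. With the mean of probe sets ALDH1A3 (-0.53) lay in this gap. With 64 units added ABCG2 (-0.67), ALDH1A3 (-0.95) and ALDH3A1 (-0.66) did. The median of the 8 members was -0.59, against 0.04 over all genes. It came out at 0.59 against 1.22 when the arrays were scaled on the poly-A spike-ins. In RNA from a whole culture, fewer cells that make a transcript and less of it per cell cannot be told apart.

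**Figure D1:**
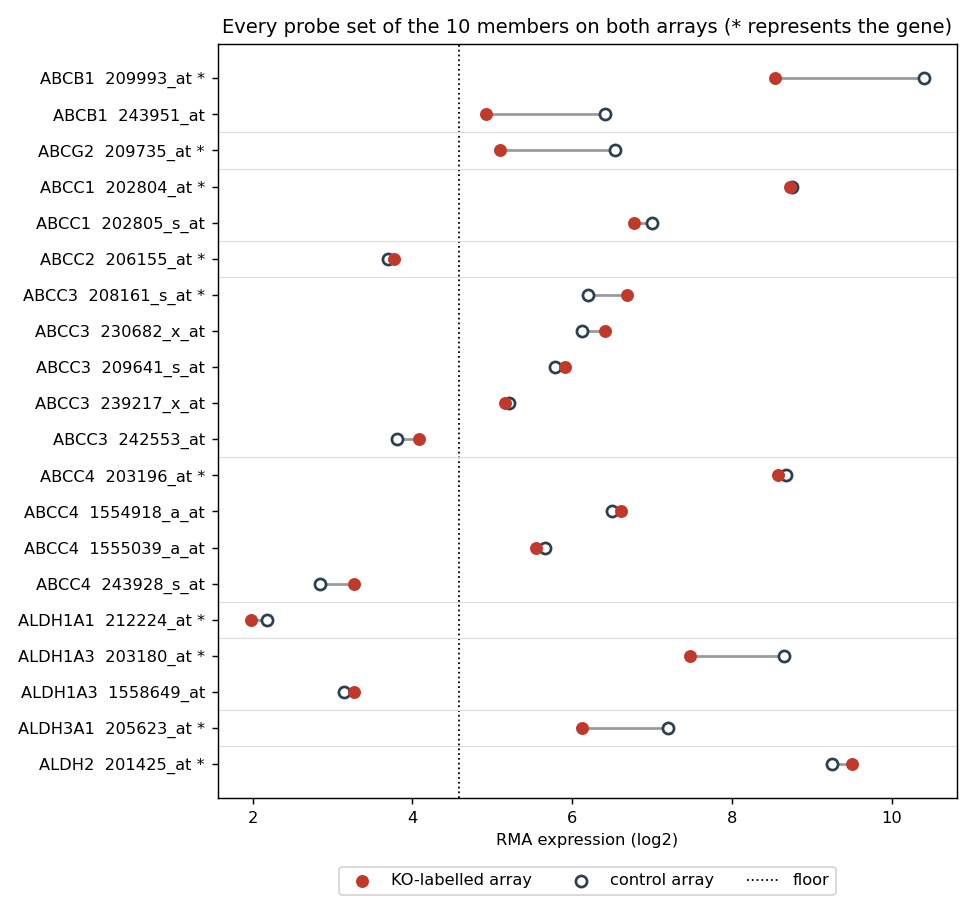
RMA expression (log2, horizontal axis) of all 20 probe sets of the 10 genes on the KO-labelled array (filled) and the control array (open), with the floor of 4.59 as a dotted line and a star at the probe set that represents each gene. Both ABCB1 probe sets and the representing ones of ABCG2, ALDH1A3 and ALDH3A1 lie well left of their control values, the rest within 0.50 of them.

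ABCB1 differed most among the members. Its representing probe set stood at 8.54 on the KO-labelled array and 10.40 on the control array, 3.63-fold lower (-1.86). Its other probe set stood at 4.92 on the KO-labelled and 6.41 on the control array, 2.81-fold lower (-1.49). Both probe sets of this pump were therefore past 2-fold in the same direction and above the floor on both arrays. A further probe set is annotated to both ABCB1 and its neighbour and close relative ABCB4, and it gave no gene value here, at 8.18 on the KO-labelled and 10.09 on the control array. Among all 12841 genes, 82 (0.639%) had a difference as low as that of ABCB1.

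ABCG2, the breast cancer resistance protein, exports topotecan, mitoxantrone and the dye Hoechst. Its single probe set stood at 5.10 on the KO-labelled array and 6.53 on the control array, 2.71-fold lower (-1.44). The lower value lay within 1 log2 unit of the floor, where RMA compresses differences, and 175 genes (1.36%) were as low. With 1 probe set there was no second measure of this gene.

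The ABCC pumps that could be compared, which export organic anions and conjugates with glutathione, glucuronide or sulphate, showed no difference of that size. ABCC1 (MRP1) had 8.73 on the KO-labelled and 8.75 on the control array (-0.02), and its other probe set differed by -0.23. ABCC4 (MRP4), which also carries cyclic nucleotides, had 8.58 on the KO-labelled and 8.68 on the control array (-0.10). Its probe sets above the floor ran from -0.12 to 0.12, on both sides of 0. These differences were smaller than the spread of 0.388 (scaled median absolute deviation) among genes of similar expression, which contains biological as well as technical differences.

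ABCC3 (MRP3), a pump of the basolateral membrane that carries glucuronides and bile salts, was the member with the highest difference. Its representing probe set stood at 6.69 on the KO-labelled array and 6.19 on the control array, 1.41-fold higher (0.50), beside a spread of 0.395 among genes of similar expression. Of its other probe sets above the floor, a pair differed by 0.28 and 0.12 and the third by -0.05. Over all genes, 8.72% had a difference as high as that of ABCC3. ABCC2 (MRP2), the apical pump for bilirubin glucuronides, lay under the floor on both arrays, at 3.77 on the KO-labelled and 3.70 on the control array, and was too dim to be judged.

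ALDH1A3, a retinaldehyde dehydrogenase, stood at 7.47 on the KO-labelled array and 8.66 on the control array, 2.27-fold lower (-1.18). Its other probe set lay under the floor on both arrays, at 3.27 on the KO-labelled and 3.15 on the control one, so that 1 probe set alone carried the difference. As the mean of its probe sets ALDH1A3 differed by -0.53, short of 2-fold. The related ALDH1A1, the isoform most often linked to the dehydrogenase assay for stem-like cells, stood at 1.98 on the KO-labelled and 2.18 on the control array. Both values lay far under the floor, so no direction is read for ALDH1A1.

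ALDH3A1 oxidises aromatic and medium-chain aldehydes and inactivates activated cyclophosphamide. Its single probe set stood at 6.12 on the KO-labelled array and 7.21 on the control array, 2.12-fold lower (-1.08), close to the threshold. The spread among genes of similar expression was 0.437 here, and 405 genes (3.15%) were as low. ALDH2, the mitochondrial enzyme that clears acetaldehyde, stood at 9.51 on the KO-labelled and 9.25 on the control array. This 0.26 was smaller than the spread of 0.366. Among the 3 aldehyde dehydrogenase members above the floor, ALDH1A3 and ALDH3A1 were thus lower by over 2-fold while ALDH2 was not. The difference between them was not tested.

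Counted by probe set, 15 of the 20 reached the floor and 5 of these were at least 2-fold lower, with none 2-fold higher. Over all single-gene probe sets above the floor, 4.02% were 2-fold lower and 1.34% higher. The 5 were both of ABCB1 and the representing ones of ABCG2, ALDH1A3 and ALDH3A1, so that ABCB1 alone had the difference in more than 1 probe set.

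**Figure D2:**
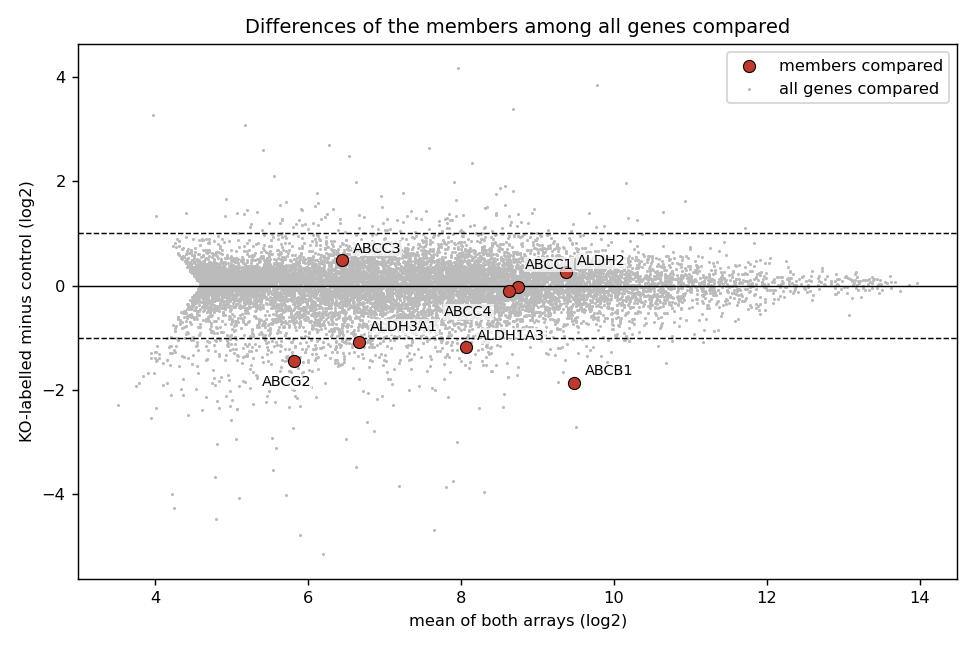
Difference of each gene (KO-labelled minus control, log2) against the mean of both arrays, for all 12841 genes compared (grey) and the 8 members above the floor (red), with dashed lines at 2-fold. ABCB1, ABCG2, ALDH1A3 and ALDH3A1 lie under the lower line and the other 4 members between the lines.

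The directions are relative to the other genes on each array. Poly-A spike-ins are bacterial transcripts that the array procedure adds to a sample ahead of labelling, and their 24 probe sets averaged 5.67 on the KO-labelled array and 6.86 on the control array. When the arrays were scaled on them, every difference moved up by 1.19, and the median over all genes became 1.22. On that scale 9137 of the 12841 genes compared were 2-fold higher and 44 lower. The counts of gene lists on the spike-in scale given below are to be read beside this background. ABCB1 (-0.67) and ABCG2 (-0.25) then remained below 0, while ALDH1A3 (0.0038) and ALDH3A1 (0.10) did not. The sources used here do not state the amount of spike-in or RNA, and the part of loading in this shift was not tested.

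**Figure D3:**
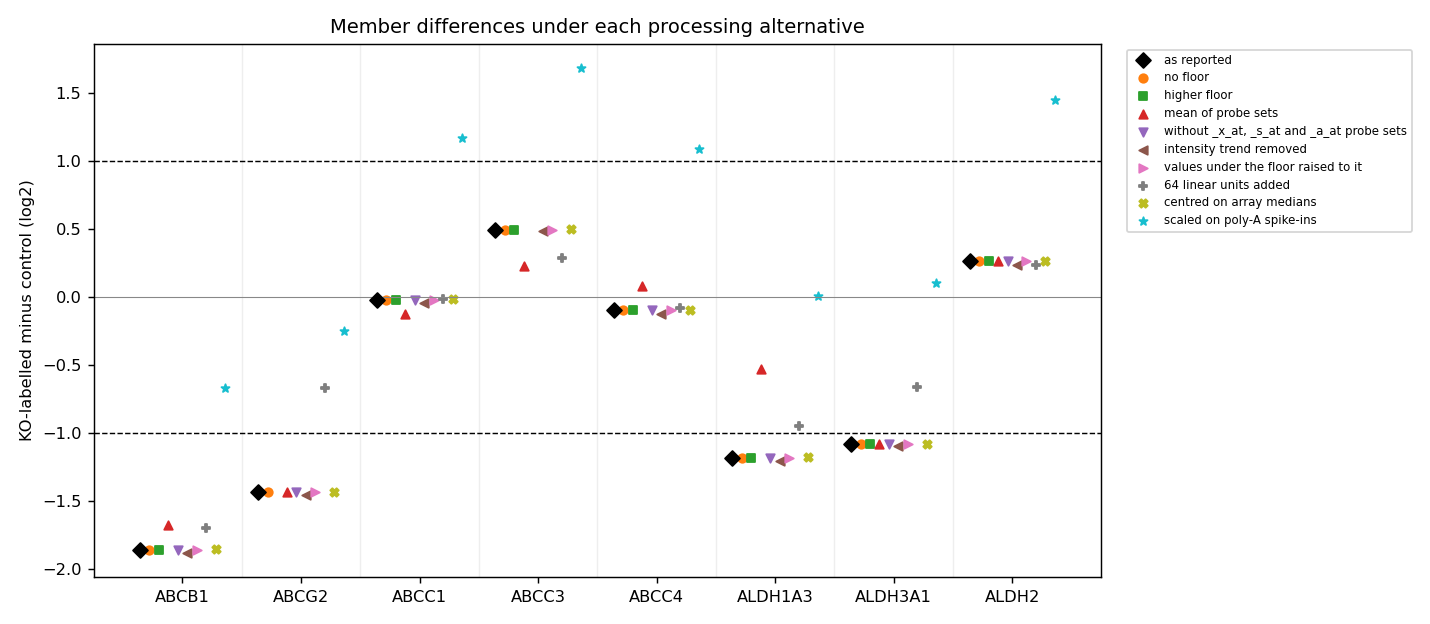
Difference of the 8 members above the floor (KO-labelled minus control, log2, vertical axis) as reported (black diamonds) and under each of 9 processing alternatives that gave it a value, with dashed lines at 2-fold. Scaling on the poly-A spike-ins lifts every member by 1.19 and puts ALDH1A3 and ALDH3A1 above 0, and adding 64 linear units leaves only ABCB1 past 2-fold. ABCG2 has no point under the higher floor and ABCC3 none without probe sets marked for several targets.

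Relatives of these genes were counted on the scale as deposited, where 3.79% of all genes compared were 2-fold lower and 1.05% higher. Of 38 other ABC transporter genes measured, 24 reached the floor, none was 2-fold lower and 1 was 2-fold higher. Their median was 0.03, and 12 lay below 0 and 12 above it, though on the spike-in scale 18 were 2-fold higher. The lowest was ABCB10, a mitochondrial transporter, at 8.04 on the KO-labelled and 8.53 on the control array (-0.49). The 2-fold higher gene was the cholesterol exporter ABCG1, whose control value of 3.63 lay under the floor. With 6.71 on the KO-labelled array set against the floor, its representing probe set was at least 4.36-fold higher, a bound for that probe set only. Another probe set of ABCG1 stood at 5.72 on the KO-labelled and 4.27 on the control array (1.45). The remaining ones, under the floor on both arrays, differed by 0.49 and 0. ABCG1 was not compared with the mean of probe sets or without those marked for several targets. Of 15 other aldehyde dehydrogenase genes 12 reached the floor, with differences from -0.67 to 0.73, a median of -0.05 and none past 2-fold in either direction. On the spike-in scale that median was 1.14 and 8 of them were 2-fold higher. ALDH3A2, the fatty aldehyde dehydrogenase that lies beside ALDH3A1 on chromosome 17, differed by -0.15. ALDH1B1, a mitochondrial enzyme, differed by -0.67, with 7.22 on the KO-labelled and 7.89 on the control array.

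ABCG2 and ALDH3A1 are both known as transcriptional targets of the aryl hydrocarbon receptor (AHR), a ligand-activated transcription factor that responds to planar aromatic compounds and tryptophan metabolites. AHR itself stood at 6.49 on the KO-labelled array and 8.42 on the control array, 3.81-fold lower (-1.93). Its classical target CYP1A1, a monooxygenase, stood at 5.12 on the KO-labelled and 6.45 on the control array, 2.52-fold lower (-1.33). The related CYP1B1 stood at 4.77 on the KO-labelled array, close to the floor, and 6.89 on the control array, 4.35-fold lower (-2.12). Its other probe sets above the floor differed by -1.87 and -2.67, the last with its KO-labelled value under the floor. The remaining one, under the floor on both arrays, differed by -0.37. All probe sets of CYP1B1 are marked for several targets, so it was not compared without such probe sets. With 64 linear units added CYP1B1 fell just short of 2-fold. AHRR, the repressor that the receptor induces, stood at 5.64 on the KO-labelled and 7.07 on the control array, 2.69-fold lower (-1.43).

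Over all genes compared, 3.79% were 2-fold lower and 1.05% higher, with a median of 0.04. Of 10 measured genes of the AHR list 8 reached the floor, 4 were 2-fold lower and none was 2-fold higher, with a median of -0.65. On the spike-in scale none was 2-fold lower and 4 were 2-fold higher, with a median of 0.54, and 1 was lower with 64 units added. The other 4 lay above 0. TIPARP, another induced repressor of AHR, stood at 9.10 on the KO-labelled and 8.14 on the control array (0.95), and NQO1, a quinone reductase, differed by 0.14. ARNT, the partner of the receptor, differed by 0.07 and the monooxygenase CYP1A2 by 0.04. AHR, AHRR and CYP1A1 had 1 probe set each. These are values from the same pair of arrays as the members, and no link between them was tested.

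ALDH1A3 makes retinoic acid, which acts through the retinoic acid receptors and is broken down by CYP26 enzymes. Among all genes compared, 3.79% were 2-fold lower and 1.05% higher. Of 27 measured genes of the retinoid list 18 reached the floor, 3 were 2-fold lower and 1 was 2-fold higher, with a median of -0.33. On the spike-in scale none was 2-fold lower and 7 were 2-fold higher, with a median of 0.86. None was 2-fold lower with the higher floor or with 64 units added, and with 64 units added none was 2-fold higher. RARRES1, a retinoic acid responder, stood at 4.75 on the KO-labelled and 5.86 on the control array (-1.11, or 0.074 on the spike-in scale), and its other probe sets, both under the floor on the KO-labelled array, differed by -1.86 and -1.35. PLAAT4, another responder, and RBP4, the retinol carrier, were under the floor on the KO-labelled array. Their representing probe sets were at least 2.61-fold and at least 1.96-fold lower. RBP4 thus counts among the 3 by its measured value, and 2 were lower with values under the floor raised to it. The other probe set of RBP4, under the floor on both arrays, differed by -0.07. As the mean of its probe sets RBP4 differed by -0.84, short of 2-fold. The receptor RXRA had probe sets that opposed each other, at 1.03 and -0.98, and no direction is read for it. The retinoic acid hydroxylases CYP26B1 (-0.78) and CYP26A1 (-0.46) differed by less than 2-fold.

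**Figure D4:**
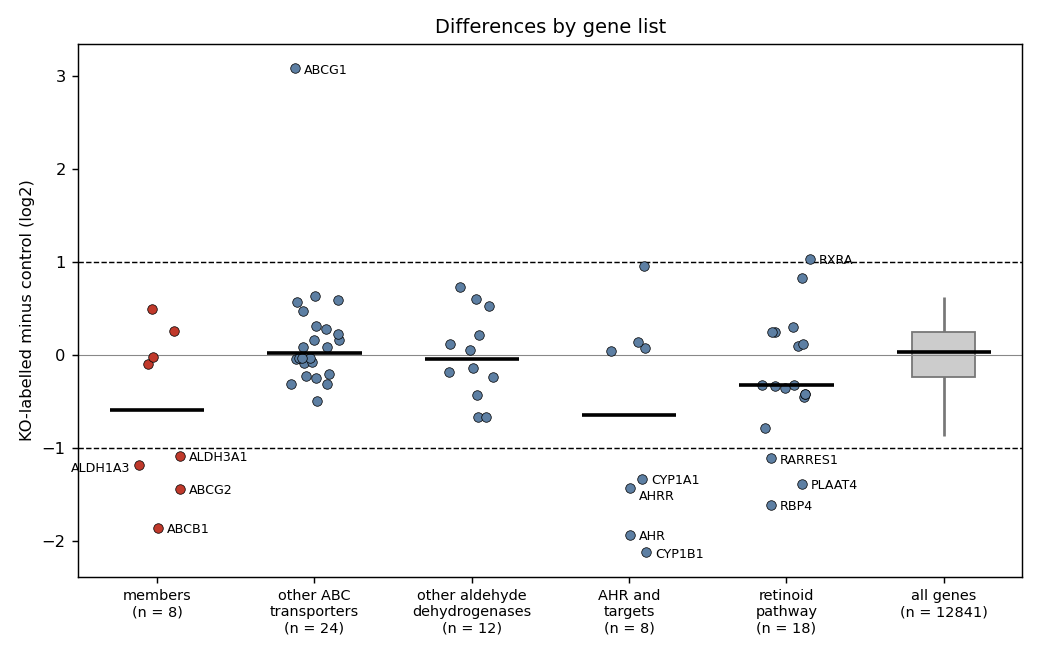
Difference (KO-labelled minus control, log2, vertical axis) of every gene above the floor in the members and 4 related lists, with black lines at the medians, dashed lines at 2-fold and names for genes past it. The box for all 12841 genes spans the quartiles, -0.24 and 0.25, with lines to the percentiles 5 and 95 (-0.87 and 0.62), and on the spike-in scale all points would lie 1.19 higher.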

How the data were processed

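Total RNA of 1 ARID3B KO-labelled and 1 control culture of HCT15 cells was measured on 1 Affymetrix array each. The deposited table holds log2 values per probe set, which the authors computed with RMA according to the submitters' processing notes; the version, a genome build and the set of arrays normalised together are not stated there. RMA equalises the arrays' distributions by its quantile step, so differences are relative to other genes on the array.

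Of 54675 probe sets 62 were controls and 41091 had 1 gene symbol in the platform annotation, of which 41037 were found by Entrez identifier in a RefSeq table of GRCh38.p14, with no symbol changed. The floor, the representing probe set and the 2-fold threshold were as given above. The spread (scaled median absolute deviation) was taken over genes in 10 bins of mean expression, 0.255 to 0.437. Promoter windows came from RefSeq, which held 6 of the 10 members. The members, gene lists and alternatives were chosen with earlier results of these data known. All members are named, and of each other list up to 6 genes past 2-fold, while a few list members within 2-fold were named after their values were seen. Of the lists, genes without a single-symbol probe set were left out.

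Alternatives were to drop the floor, to raise it to percentile 75, to average the probe sets of a gene, to leave out probe sets whose suffix marks several possible targets, removal of a loess trend (span 0.3), values raised to the floor, 64 linear units added, centring on array medians, scaling on 24 spike-in probe sets, and thresholds of 1.5-fold and 3-fold. A value without a replicate was taken as moved when it shifted by more than this spread. Calling was tested on simulated data (this comparison, 12852 genes, noise SD 0.25), where 90% of 50 genes planted at -1.5 and 92% of 50 planted at 1.5 were called. Calculations used Python 3.11.15, pandas 2.3.3, statsmodels 0.14.6 and matplotlib 3.10.9.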

Additional observations from a re-analysis of the deposited data

How the results depend on the processing

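No paired analysis was possible because each group has 1 array. The count of 4 members 2-fold lower was 1 with 64 linear units added, 0 on the spike-in scale and 1 at the 3-fold threshold, ABCB1 in both cases of 1. It was 3 with the higher floor, which left out ABCG2, and 3 with the mean of probe sets, where ALDH1A3 fell short, and it stayed at 4 under the other alternatives, 1.5-fold included. No member was 2-fold higher except on the spike-in scale, where 4 were. The median of -0.59 became -0.15 with no floor, -0.10 with the higher floor, -1.08 without probe sets marked for several targets, and 0.59 on the spike-in scale. The first 3 of these cover 10, 7 and 7 members in place of 8. Of the named genes past 2-fold, the sign turned on the spike-in scale for ALDH1A3 (0.0038), ALDH3A1 (0.10), NAT1 (0.030) and RARRES1 (0.074), and there all differences move up by 1.19. ABCC1 (1.17) and ABCC4 (1.09), near 0 as reported, turned there too, and ABCC4 was 0.08 with the mean of probe sets. Over all genes the spike-in scale put 44 genes 2-fold lower and 9137 higher, against 487 and 135 as reported, and 64 added units gave 117 and 46. Without the spike-in scale, ABCB1 ranged from -1.88 to -1.68, ABCG2 from -1.46 to -0.67, ALDH1A3 from -1.20 to -0.53 and ALDH3A1 from -1.09 to -0.66. With 1 array per group no precision beyond the spread among genes can be given, and ABCC2 and ALDH1A1 were too dim to be judged. The median of the AHR list was -1.43 with the higher floor and 0 with no floor. Of the values of single genes, members included, and of the other lists, 17 moved with 64 units added and 33 on the spike-in scale. Among the 33 were the list medians that turned (AHR, retinoid and other aldehyde dehydrogenases). At most 8 moved under any other alternative.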

Other observations

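Other genes of drug handling were taken from lists chosen with earlier results known. Beside them, 3.79% of all genes compared were 2-fold lower and 1.05% higher on the scale as deposited. Of 22 conjugation enzymes above the floor, 1 was 2-fold higher and 1 lower, with a median of 0.10 (1.28 on the spike-in scale, where 15 were higher). Of the 22, 10 lay below 0 and 12 above it. MGST1, short of 2-fold, stood at 9.77 on the KO-labelled and 10.70 on the control array (-0.93). All 4 of its probe sets above the floor were lower. GSTM4, a glutathione transferase, stood at 7.24 on the KO-labelled and 6.23 on the control array (1.01), and its other probe set differed by 0.95. It fell short of 2-fold with the mean of probe sets (0.98), with the intensity trend removed and with 64 units added (0.63). Both probe sets of GSTM4 are marked for several targets, so it was not compared without such probe sets. GSTM4 shares close sequence with other GSTM genes, so that its probe sets may measure several of them. The arylamine acetyltransferase NAT1 counted as lower by its measured value, but lay under the floor on the KO-labelled array and was at least 1.15-fold lower, so that no enzyme was 2-fold lower with values raised to the floor. Of 15 drug uptake transporters above the floor none was past 2-fold, with differences from -0.84 for the nucleoside transporter SLC29A3 to 0.58 for the organic anion carrier SLCO2B1, though 9 were 2-fold higher on the spike-in scale. Of 13 receptors and regulators of efflux genes above the floor none was past 2-fold as deposited and 11 were higher on the spike-in scale, and the vitamin D receptor VDR was lowest, at 6.81 on the KO-labelled and 7.65 on the control array (-0.84).

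The nearest genes that could be compared around the 4 lower members on their chromosomes, 2 on each side, were looked at after the values were seen. Of these 16 genes 1 was 2-fold lower, HERC6 on chromosome 4, at 6.10 on the KO-labelled and 7.52 on the control array (-1.42). The share 2-fold lower among all genes compared was 3.79%. PPM1K, which lies between HERC6 and ABCG2, differed by 0.16. Around ABCB1 on chromosome 7, TMEM243 stood at 7.62 on the KO-labelled and 8.57 on the control array (-0.95), close to the threshold, while CROT differed by -0.17, RUNDC3B by 0.05 and SLC25A40 by 0.46. ABCB4, which also lies there, was under the floor on both arrays.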
